A study of Mus musculus with 12 samples.

Results

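Oxidative phosphorylation is carried out by 5 protein complexes of the inner mitochondrial membrane, and the genes described here encode the nuclear subunits of those complexes. Members were the gene symbols, in any of the deposited tables, that begin with Nduf followed by a, b, c, s or v (assembly factors left out), Cox followed by a digit from 4 to 8, Uqcr or Atp5, or that are Sdha, Sdhb, Sdhc or Sdhd. This gave 74 genes of 10751 in the tables. Of the 74, 73 were counted as genes of subunits or their tissue isoforms, Cox7a2l and the paralogue Ndufa4l2 among them. Atp5sl, which matches by name, is an assembly-related gene and was not counted as a subunit. The rule uses names only, but a gene had to be in at least 1 table to be found. Counts are therefore also given over a list of 84 subunit genes, of which 11 were in none of the tables: Ndufa13, Ndufab1, Ndufb1-ps, Ndufs4, Cox7b, Cox7c, Cox4i2, Cox6b2, Cox7b2, Cox8b and Cox8c.

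Complex I oxidises NADH, complex II (succinate dehydrogenase) oxidises succinate and is also an enzyme of the citrate cycle, complex III passes electrons from ubiquinol to cytochrome c, and complex IV (cytochrome c oxidase) hands them to oxygen. The proton gradient this builds drives complex V, the ATP synthase. Complexes I, III, IV and V mix subunits encoded in the nucleus with a few encoded in mitochondrial DNA, so their assembly draws on 2 genomes. N6-methyladenosine (m6A), the internal methyl mark of mRNA, is known for marking transcripts for turnover and for altered translation.

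The cells were primary keratinocytes from the epidermis of newborn mice, kept on mitomycin C-arrested 3T3 fibroblast feeders in the first passages and grown in E-media with serum. All groups share this culture, and the labels name no sort that would remove feeder cells. Day 0 cells were undifferentiated in low calcium, and day 4 cells had been differentiated by raising calcium; no genetic change, strain, sex or pooling of animals is stated in the labels. PolyA RNA was sheared by sonication and made into stranded libraries. Each day had 3 input libraries and 3 libraries immunoprecipitated with an anti-m6A antibody, 12 in all. The deposited tables hold no value per library, so each level below is the authors' summary over the replicates, the depth of each library is unknown, and no test over replicates beyond the authors' own was possible. Nothing in the labels ties the replicates to separate animals or cultures, and the p-values then reflect the spread among the libraries alone, which may be technical. All 8 keratinocyte markers looked at were in the expression table, which holds changed genes only, and 5 were higher at day 4 and 3 lower. The log2 fold changes of these 8 ran from -0.99 for Itga6 to 1.06 for Krt14 in the authors' deposited table. Mean normalized counts there were 196003 for Krt5 and 209477 for Krt14. Of 13 fibroblast and feeder markers, 4 were higher at day 4, 1 was lower and 8 were not listed, Col1a1, Col1a2 and Vim among the latter. Over all 14924 genes tested, 27.1% were higher and 26.4% lower. Log2 fold changes of the listed feeder markers ran from -2.07 for Col6a1 (mean normalized count 86.4) to 4.58 for Col5a1 (mean 65.8) in the authors' deposited table. Postn (3.66, mean 305) and Acta2 (2.97, mean 1187) were higher at larger counts there. The part of the feeder markers in the results below was not tested.

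Most subunit genes that changed were lower after differentiation. Of the 74 members, 41 were lower at day 4, 11 were higher and 22 were not listed in the authors' deposited table, which holds only genes at a DESeq2 adjusted p under 0.05. Absence from that table means that a gene missed this limit or had no test. Over the list of 84 genes this is 48.8% lower and 13.1% higher. The background over all 14924 genes tested was 26.4% lower and 27.1% higher, or 53.5% called in either direction. Members were thus lower more often, and higher less often, than genes in general; no test of this difference was made. Among listed genes the median log2 fold change was -0.46 for the members and 0.26 for all 7978 genes of the authors' deposited table. A mean normalized count of at least 100 is a floor that 49 of the 52 listed members pass. Above it the medians were -0.48 for members and -0.32 for all listed genes in the authors' deposited table. Without the floor 78.8% of listed members and 49.4% of all listed genes were lower. Above the same floor 81.6% of listed members and 53.7% of all listed genes were lower. With the floor the gap in medians thus narrowed, while the gap in shares changed little. In bulk RNA, fewer cells of a type and less RNA per cell cannot be told apart, and these values are relative to the total of each library.

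The changes were small. The median lower member fell by 32.1%, a log2 fold change of -0.56, and the median higher member stood at 0.46 on the log2 scale in the authors' deposited table. The median size of a change, without its sign, was 0.52 for members, 0.81 for all listed genes and 0.68 for all listed genes above the same floor, on the log2 scale. At a limit of 2-fold, 4 genes of the list of 84 were lower and 3 higher, smaller shares than the backgrounds of 9.9% lower and 11.3% higher. Of these 7 genes, 3 had a mean normalized count under 20. The median SE was 0.12 for members and 0.14 for all listed genes. The plot of log2 fold changes by gene shows the members of each complex in order.

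**Figure D1:**
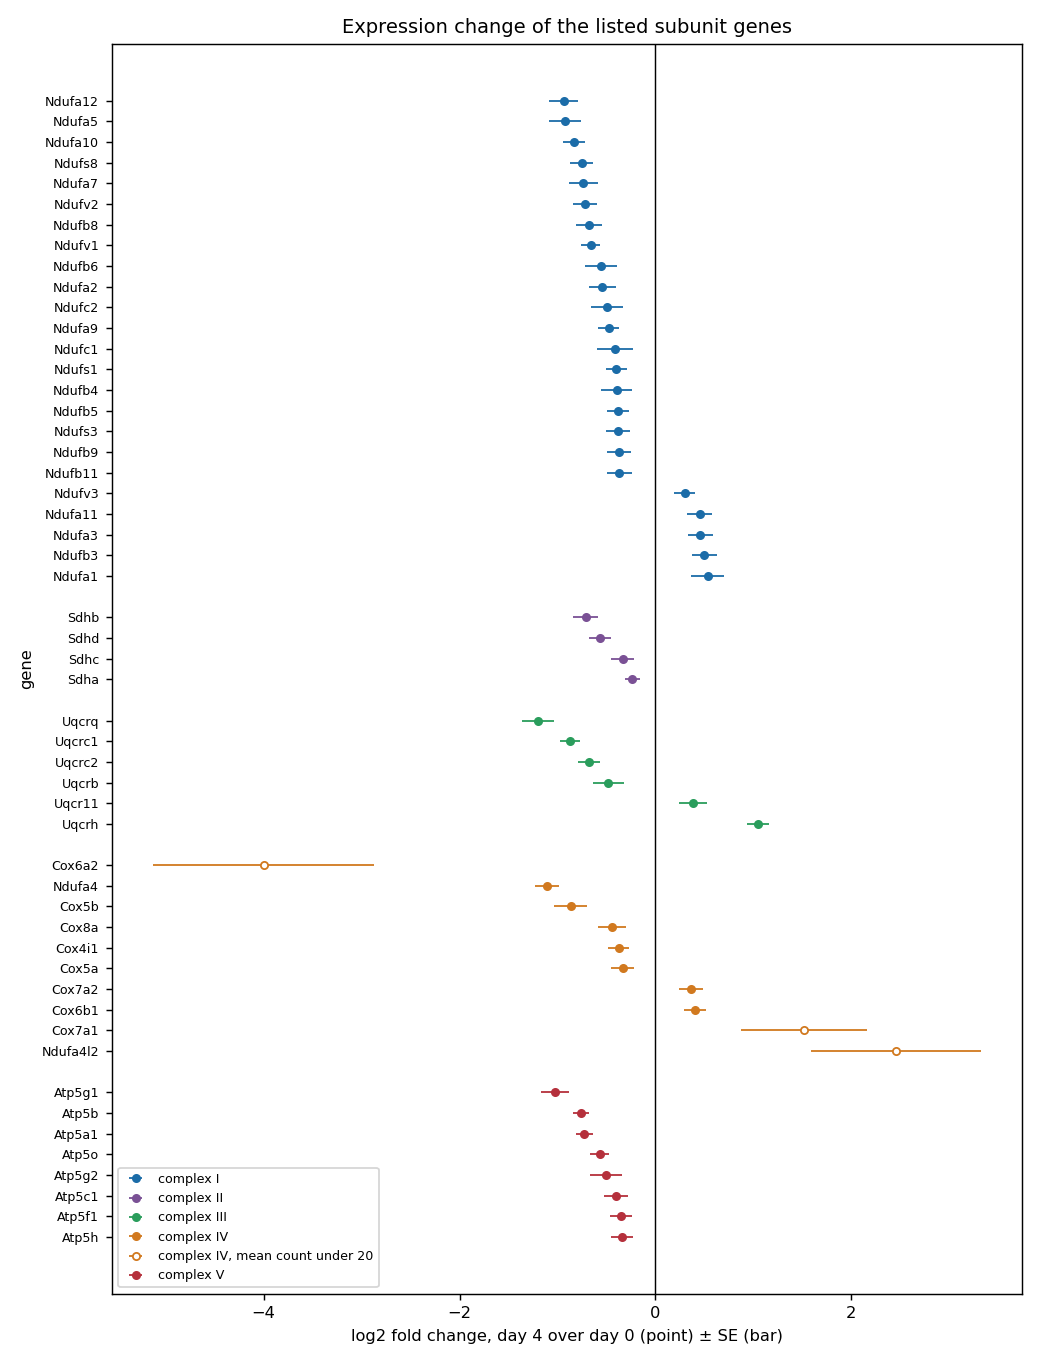
Log2 fold change of each listed subunit gene, day 4 over day 0 (x axis), with the authors' SE as bars, grouped by complex and ordered within it (y axis). Of 52 genes, 41 lie left of 0 and 11 right of it, and the open points are 3 tissue isoforms with a mean normalized count under 20.

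Promoters are shown for 6 members, 3 lower and 3 higher at day 4, because they hold the same motif letters in front of genes that moved in opposite directions. Each is the 120 bases before the annotated transcription start, from RefSeq, build GRCm38.p6 (the assembly of mm10), 5′ to 3′ on the strand of the gene. Capitals mark GCATGCG, the core letters of the NRF1 site, or CCGGAAG, an ETS-family site bound by the GABP factor, each on either strand. NRF1 and GABP are known regulators of nuclear genes for respiration.
Sdhb (lower, chr4:140961151-140961270, + strand): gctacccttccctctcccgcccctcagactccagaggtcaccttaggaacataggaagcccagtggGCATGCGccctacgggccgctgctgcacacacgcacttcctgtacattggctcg
Atp5g2 (lower, chr15:102671048-102671167, - strand): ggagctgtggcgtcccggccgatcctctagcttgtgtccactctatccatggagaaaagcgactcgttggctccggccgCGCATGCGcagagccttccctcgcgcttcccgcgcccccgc
Atp5h (lower, chr11:115419920-115420039, - strand): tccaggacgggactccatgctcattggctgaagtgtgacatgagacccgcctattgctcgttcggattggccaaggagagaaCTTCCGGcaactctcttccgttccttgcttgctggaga
Ndufa11 (higher, chr17:56717642-56717761, + strand): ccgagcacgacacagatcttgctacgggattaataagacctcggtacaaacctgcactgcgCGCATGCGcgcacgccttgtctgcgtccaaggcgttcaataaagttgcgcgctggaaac
Uqcrh (higher, chr4:116075071-116075190, - strand): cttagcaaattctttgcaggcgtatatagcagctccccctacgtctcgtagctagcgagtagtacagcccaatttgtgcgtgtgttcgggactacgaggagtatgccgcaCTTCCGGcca
Uqcr11 (higher, chr10:80406822-80406941, - strand): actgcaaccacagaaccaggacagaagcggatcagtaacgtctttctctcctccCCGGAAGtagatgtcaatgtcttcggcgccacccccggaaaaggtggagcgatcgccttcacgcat

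RefSeq promoter windows of 300 bases (250 before to 50 after the start) were found for 60 of the 73 subunit members, 65 windows in all. The NRF1 core was in 16.9% of the members' windows and in 4.44% of windows of all protein-coding genes, and the ETS letters were in 24.6% against 11.6%. On the forward strand alone the ETS letters were in 5 of the 65 windows, against 6.30% of protein-coding windows, so the difference in ETS letters rests on the reverse strand. ATGGCGG, the core of the YY1 site, was in 15.4% against 5.24%. None of the 3 motifs contains another, although their ends can overlap, and GCATGCG overlaps its own reverse complement in the palindrome of the full NRF1 site, as in Atp5g2 and Ndufa11. At least 1 of the 3 was in 30 of the 65 windows, 46.2%, against 18.9% of protein-coding windows. Among coding genes of the expression table, a background closer to these expressed genes, the shares were 26.1% for any of the 3, 5.82% for the NRF1 core, 16.1% for the ETS letters and 7.35% for the YY1 core. By expression call, the NRF1 core was in 3 of 34 windows of lower members, 2 of 10 of higher members and 6 of 21 of members not listed. The ETS letters were in 7 of 34, 3 of 10 and 6 of 21. For the YY1 core the counts were 6 of 34, 1 of 10 and 3 of 21, a larger share in lower than in higher members, unlike the other 2 motifs. A match describes letters only, and outside the stretches printed the window of Uqcr11 also holds the NRF1 core and that of Sdhb the ETS letters.

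Each count by complex or gene list below stands beside the background over all genes tested, 26.4% lower and 27.1% higher. Complex I had 19 of 37 genes lower, 5 higher and 13 not listed. Its 7 core subunits, which bind the flavin and the iron-sulfur clusters and touch ubiquinone, were lower in 5 and higher in 0. These were Ndufs8 (-0.75, SE 0.12), Ndufv2 (-0.72, SE 0.12), the NADH-binding Ndufv1 (-0.66, SE 0.10), Ndufs1 (-0.40, SE 0.11) and Ndufs3 (-0.38, SE 0.12) on the log2 scale in the authors' deposited table. Of the 30 accessory subunits, which surround the core and stabilise it, 14 were lower, 5 higher and 11 not listed.

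The largest falls among accessory subunits in the authors' deposited table were Ndufa12 (log2 fold change -0.94, SE 0.15, DESeq2 adjusted p = 2.3e-09), Ndufa5 (-0.92, SE 0.16) and Ndufa10 (-0.83, SE 0.11). Ndufa7 followed at -0.74 (SE 0.15) and Ndufb8 at -0.68 (SE 0.13) in the authors' deposited table. The other 9 lower accessory subunits lay between -0.56 (Ndufb6) and -0.37 (Ndufb11), namely Ndufb6, Ndufa2, Ndufc2, Ndufa9, Ndufc1, Ndufb4, Ndufb5, Ndufb9 and Ndufb11. Ndufc1 and Ndufb4 were called near the limit, at DESeq2 adjusted p = 0.0447 and 0.0294 in the authors' deposited table.

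The 5 higher genes of complex I were all accessory subunits. Ndufa1 had a log2 fold change of 0.53 (SE 0.17), Ndufb3 0.50 (SE 0.13), Ndufa3 0.46 (SE 0.13), Ndufa11 0.45 (SE 0.13) and Ndufv3 0.30 (SE 0.11) in the authors' deposited table. Subunits of 1 complex thus stood on both sides of no change, 1.47 log2 units apart between Ndufa12 and Ndufa1.

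Complex II was lower in all 4 of its subunits in the authors' deposited table, with none higher. The iron-sulfur subunit Sdhb had the largest fall (-0.71, SE 0.13, DESeq2 adjusted p = 8.7e-08 in the authors' deposited table). The membrane anchors Sdhd (-0.56, SE 0.11) and Sdhc (-0.33, SE 0.12) and the flavoprotein Sdha (-0.23, SE 0.08) followed in the authors' deposited table. Sdha, the catalytic subunit, had the smallest change of any listed member.

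Complex III held both the deepest fall and the largest rise among the members that were not scarce, those whose mean normalized count reached 100. Uqcrq, a small subunit, stood at -1.20 (SE 0.16, DESeq2 adjusted p = 9.3e-13) on the log2 scale, and Uqcrh, the hinge protein near the cytochrome c docking site, at 1.05 (SE 0.11, DESeq2 adjusted p = 1.7e-20) in the authors' deposited table. Uqcrh was 2.07-fold higher at day 4 while Uqcrq was 2.29-fold lower. The large core proteins Uqcrc1 (-0.87, SE 0.10) and Uqcrc2 (-0.68, SE 0.12) and the small Uqcrb (-0.48, SE 0.16) were also lower in the authors' deposited table. Uqcr11 was higher (0.39, SE 0.14) in the authors' deposited table, and Uqcr10 and the Rieske iron-sulfur protein Uqcrfs1 were not listed. The tables give Uqcrb and Uqcrq the same Ensembl identifier but different values, so they were kept apart by symbol and both are uncertain.

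Complex IV, with its tissue isoforms, had 6 of 20 genes lower, 4 higher and 10 not listed. Ndufa4, once assigned to complex I and now counted as a subunit of cytochrome c oxidase, stood at -1.10 (SE 0.12, DESeq2 adjusted p = 8.2e-19), and Cox5b at -0.87 (SE 0.17) on the log2 scale in the authors' deposited table. Cox8a (-0.45, SE 0.14), Cox4i1 (-0.38, SE 0.11) and Cox5a (-0.33, SE 0.12) were lower by less in the authors' deposited table. Cox6b1 (0.40, SE 0.12) and Cox7a2 (0.36, SE 0.12) were higher in the authors' deposited table. Cox6a1, Cox6c and Cox7a2l were not listed.

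Isoforms of complex IV used in particular tissues had low mean counts. Cox6a2, the heart and muscle form of Cox6a, had a log2 fold change of -4.00 (SE 1.13) at a mean normalized count of 6.07 in the authors' deposited table. Cox7a1, the muscle form of Cox7a, had 1.52 (SE 0.65) at a mean of 10.6 in the authors' deposited table. Ndufa4l2, a paralogue of Ndufa4 known to respond to hypoxia, had 2.46 (SE 0.87) at a mean of 9.60 in the authors' deposited table. These 3 have the largest SEs of the members. Without them the counts are 40 lower and 9 higher, and the 2-fold changes are 3 lower and 1 higher.

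Complex V was lower in 8 of 15 genes and higher in 0, with 7 not listed. In the catalytic F1 head, the beta subunit Atp5b (-0.76, SE 0.09, DESeq2 adjusted p = 4.4e-18), the alpha subunit Atp5a1 (-0.73, SE 0.09) and the gamma subunit Atp5c1 (-0.40, SE 0.12) fell on the log2 scale in the authors' deposited table. Atp5d and Atp5e, the delta and epsilon subunits, were not listed. The genes Atp5g1, Atp5g2 and Atp5g3 encode the same mature c subunit of the membrane ring. Atp5g1 stood at -1.02 (SE 0.14) and Atp5g2 at -0.50 (SE 0.17) on the log2 scale in the authors' deposited table, and Atp5g3 was not listed. The stalk subunits Atp5o (-0.57, SE 0.10), Atp5f1 (-0.35, SE 0.11) and Atp5h (-0.34, SE 0.11) were lower in the authors' deposited table. The small stalk and membrane subunits Atp5j, Atp5j2, Atp5k and Atp5l were not listed. Many subunit genes have processed pseudogene copies in the mouse genome, and the sources used here do not state how reads shared with a copy were counted.

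The rest of the pathway went mostly the same way. Of 5 subunit or carrier genes outside the naming rule, cytochrome c1, Cyc1 (-0.79, SE 0.12), and cytochrome c, Cycs (-0.46, SE 0.15), were lower, and the ATP synthase inhibitor Atpif1 was higher (0.29, SE 0.10) in the authors' deposited table. Of 46 assembly factors, 22 were lower, 7 higher and 17 not listed. The complex I factor Ndufaf6 (-2.26, SE 0.44, mean normalized count 28.6) and the complex IV factors Coa7 (-1.69, SE 0.20) and Cox18 (-1.37, SE 0.15) fell furthest in the authors' deposited table. Cox19 (1.06, SE 0.15) and Pet100 (0.96, SE 0.13), both factors of complex IV, went the other way in the authors' deposited table. Of 16 enzymes of the citrate cycle and pyruvate dehydrogenase, 13 were lower and 0 higher, led by Suclg2 (-1.45, SE 0.11), fumarase Fh1 (-1.43, SE 0.12) and Dlat (-1.03, SE 0.11) in the authors' deposited table. Of 13 regulators of mitochondrial biogenesis, 7 were lower and 1 higher. The coactivators Ppargc1b (-3.001, SE 0.29) and Pprc1 (-1.12, SE 0.09) and the mitochondrial RNA-binding protein Lrpprc (-1.36, SE 0.11) were lower, and the nuclear receptor Esrra was higher (0.68, SE 0.16) in the authors' deposited table. Of the factors named for the 3 promoter motifs, Yy1 was lower (-0.30, SE 0.11) in the authors' deposited table, and Nrf1 and Gabpa were not listed there. The 13 protein-coding genes of mitochondrial DNA were in none of the tables, so the mitochondrially encoded subunits are not analysed here.

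**Figure D2:**
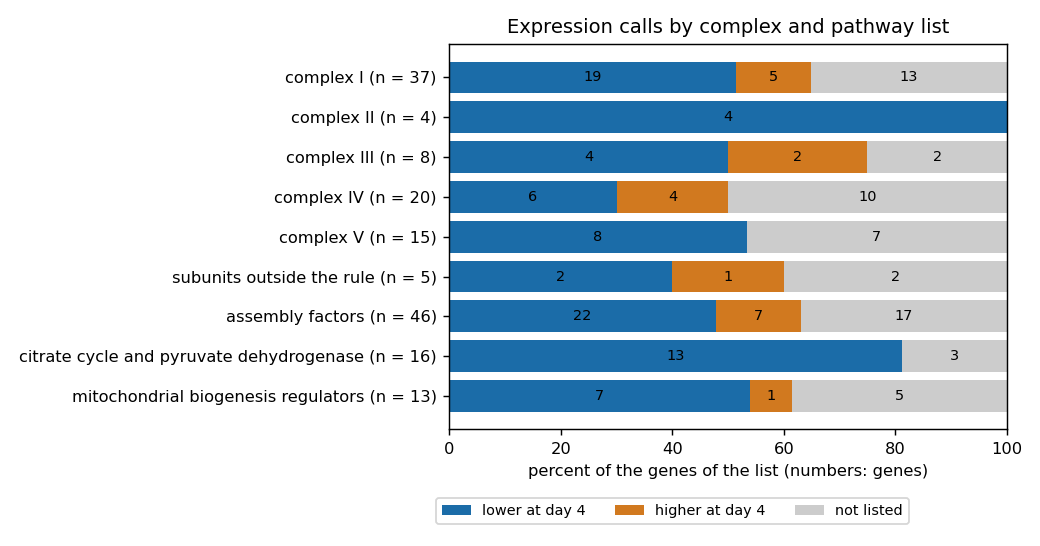
Percent of the genes of each complex and pathway list (x axis) that were lower at day 4, higher at day 4 or not listed in the expression table, with the number of genes in each segment. Complexes II and V have no higher gene, complex I has 19 lower and 5 higher, and the citrate cycle list has 13 lower of 16.

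The peak lists show where m6A was enriched on each day. Of the 74 members, 49 had a listed peak at day 0 and 49 at day 4, 41 of them on both days, and 17 had none on either day. Members in the expression table had a day 0 peak in 59.6% of cases, against 59.5% of all genes in that table, and a day 4 peak in 57.7% against 55.8%. Where the mean normalized count reached 100 the shares were 63.3% of members against 73.2% of genes at day 0, and 61.2% against 68.5% at day 4. The members' peaks were fewer per gene. Genes with a peak held 1.53 peaks each among members and 2.70 among all genes at day 0, and 1.61 against 2.65 at day 4. No member had more than 3 peaks on a day. The enrichment score, which is the authors' own value per peak and has no stated scale, had a median of 7.06 over the members' 75 day 0 peaks and 21.4 over all day 0 peaks. At day 4 the medians were 6.77 over 79 peaks of members and 17.1 over all peaks. In the day 0 list 88.0% of members' peaks lay under the median of the list, and in the day 4 list 77.2%.

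Peaks with the highest scores within each list were in accessory subunits of complex I at day 0 and in complex II at day 4. At day 0 the highest were Ndufc2, on chromosome 7 from 97400100 to 97400246 (mm10, score 123), and Ndufa6, on chromosome 15 from 82350232 to 82350281 (score 90.3). At day 4 the highest were Sdhc, on chromosome 1 from 171129206 to 171129255 (score 50.2), and Ndufc2 again (score 42.3). Among complex V genes Atp5g3 had a score of 36.0 at day 4 and 11.0 at day 0, each within its own list, since no common scale of the 2 lists is stated. The leading peaks of the other complexes were Uqcrc2 in complex III (15.97 at day 0, 30.8 at day 4), Cox4i1 (11.2 at day 0) and Cox8a (27.8 at day 4) in complex IV, Sdha (22.7 at day 0) in complex II and Atp5g1 (22.2 at day 0) in complex V. Atp5b, Uqcrfs1 and Ndufs1 were among the genes with 3 peaks at day 4. Ndufc2 and Ndufs1 had their leading peak within 300 bp of the 5′ end of the gene, Sdhc and Ndufa6 within 300 bp of the 3′ end.

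Peaks of members lay near gene ends more often than peaks in general, with distance taken from the nearer edge of each peak. At most 300 bp from the annotated 3′ end were 32.0% of members' day 0 peaks and 45.6% of their day 4 peaks, against 13.7% and 15.6% of all placed peaks. Within 300 bp of the 5′ end the shares were 30.7% and 27.8%, against 5.80% and 7.44%. Some peaks counted at the 5′ end were wide on the genome, where introns count in the width. Between its outer edges the day 0 peak of Ndufs6 measured 7951 bp in a span of 8607 bp, and that of Uqcrh 5068 bp in 8106 bp. These widths are not lengths of enriched mRNA, and the part of them in exons was not examined. Near neither end were 28 of the 75 day 0 peaks and 21 of the 79 day 4 peaks of members. The members' RefSeq spans ran from 0.932 to 34.3 kb, and the part of gene length in these shares was not tested.

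Most peaks of members overlapped a peak of the other day. Of the 75 day 0 peaks 74.7% overlapped a day 4 peak on the same strand by at least 1 bp, against 70.2% of all day 0 peaks. Of the 79 day 4 peaks 72.2% overlapped a day 0 peak, against 78.9% of all. Members with a peak at day 0 only numbered 8: Atp5h, Atp5j, Ndufa4, Ndufa5, Ndufa10, Ndufb2, Sdha and Uqcrb. Of these, 6 were lower in expression at day 4 and 0 higher, and the part of lower expression in the absence of a day 4 peak was not tested. Over all 797 genes of the expression table with peaks at day 0 only, 4.02% were higher, so the members followed the general pattern. A peak absent from the day 4 list is not a called loss of m6A. Atp5h, at its day 0 peak, and Ndufa5, outside any peak, each had a site listed as gained at day 4 (log fold changes 1.50 and 1.91). Members with a peak at day 4 only also numbered 8: Atp5k, Atp5l, Cox5b, Cox6c, Cox7a2, Ndufa1, Ndufb4 and Ndufb6. Here 3 were lower in expression, 2 higher and 3 not listed. Over all 497 genes of the expression table with peaks at day 4 only, 93.8% were higher, unlike these few members. The 17 members without a peak were 12 lower genes, Ndufv2, Ndufa12 and Atp5c1 among them, 4 higher genes (Ndufa11, Ndufb3, Cox7a1 and Ndufa4l2) and Uqcr10.

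**Figure D3:**
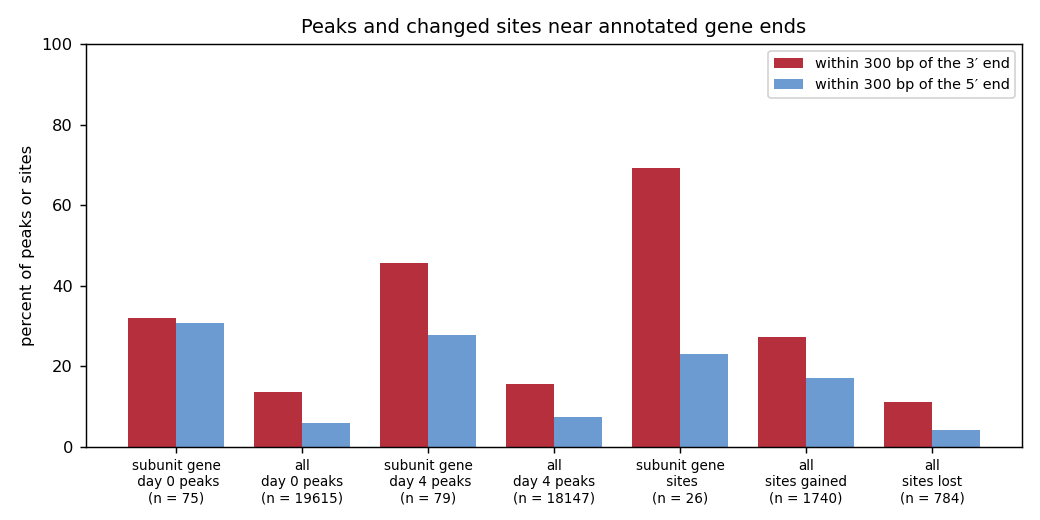
Percent of peaks or changed sites (y axis) that lie at most 300 bp from the annotated 3′ or 5′ end of their gene, for the subunit genes and for all placed peaks and sites, with the number placed under each pair of bars. Changed sites of the subunit genes lie near the 3′ end in 69.2% of cases, against 27.3% of all gained and 11.1% of all lost sites.

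Every changed m6A site in the members was a gain at day 4. The authors' deposited table of methylation changes, which lists sites at a false discovery rate under 0.05, held 26 sites in 24 members, 26 gained and 0 lost. Over all 36796 sites tested the background was 6.96% called, 4.79% gained and 2.17% lost, and 68.8% of all listed sites were gains. How many sites in members were tested is not given in the table, and whether the members' share of gains differs from that of all sites was not tested. Finite log fold changes ran from 1.15 to 3.29 with a median of 1.89 in the authors' deposited table, against 1.82 for all finite gains in the same table. The sources used here do not state the base of this logarithm, and no linear fold is printed.

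The gains fell in all 5 complexes. In complex III, Uqcrc1 had the largest finite gain in the authors' deposited table, 3.29 (rate 1.7e-06), on chromosome 9 from 108949495 to 108949592. Uqcr11 had a gain of 2.32 (7.5e-07) on chromosome 10 from 80403045 to 80403094 and a second of 1.59 near its 5′ end, and Uqcr10 had 2.02, also near its 5′ end, in the authors' deposited table. In complex IV, Cox5b gained 2.75 (4.0e-07), Cox7a2 2.52, Cox4i1 2.36 (2.6e-07), Cox6c 2.16, Cox6a1 1.52 and Cox6b1 1.15 in the authors' deposited table. Complex IV thus had a gain in 6 genes, of which Cox5b and Cox4i1 were lower in expression, Cox7a2 and Cox6b1 higher and Cox6a1 and Cox6c not listed.

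In complex I, 11 sites in 10 genes were gained. The core subunits Ndufv1 (2.44), Ndufs8 (2.28) and Ndufv2 (1.63) and the accessory subunits Ndufa12 (1.97), Ndufa5 (1.91), Ndufb11 (1.89), Ndufa7 (1.78), Ndufa3 (1.77), Ndufb9 (1.53 and 1.31) and Ndufc2 (1.38) made up these log fold changes in the authors' deposited table. The calls at Ndufv2, Ndufc2 and Ndufa12 were near the limit, at rates of 0.0488, 0.0438 and 0.0401 in the authors' deposited table. In complex V the gains were Atp5g3 (2.15, rate 3.3e-06), Atp5d (1.76), Atp5b (1.55) and Atp5h (1.50) in the authors' deposited table. Complex II had 1, at the 3′ end of Sdhc, with an infinite log fold change (rate 2.8e-04) in the authors' deposited table. A day 4 peak of Sdhc overlaps it and no day 0 peak does.

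Gains were listed in genes lower and higher in expression. Of the 24 members with a gained site, 15 were lower in expression, 4 higher and 5 not listed. The median log2 fold change in expression was -0.49 for the 19 listed members with a site and -0.45 for listed members without one. Among all listed sites, 67.2% of those in genes lower at day 4 and 75.7% of those in genes higher were gains. The plot of m6A change against expression change shows gains on both sides of no change in expression.

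**Figure D4:**
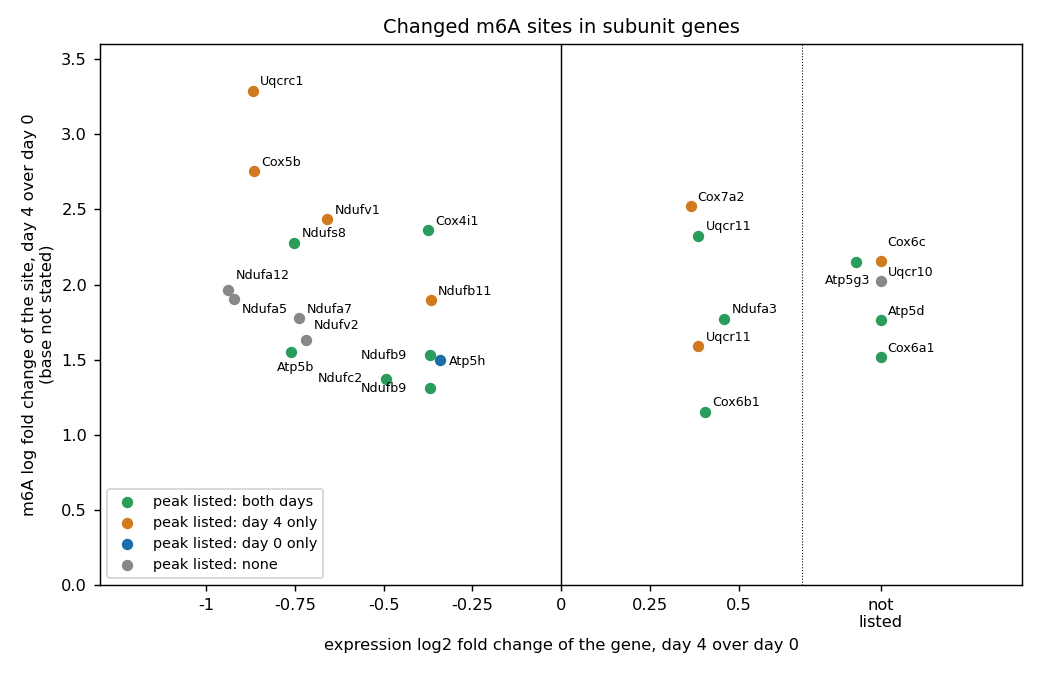
Log fold change in m6A of 25 finite sites (y axis, day 4 over day 0, base not stated) against the log2 fold change in expression of their gene (x axis), with genes not in the expression table in a strip at the right, where Atp5g3 is moved sideways to be seen. Colours give the days on which a listed peak overlaps the site, and all points lie between 1.15 and 3.29.

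Gained sites were listed mainly near the 3′ end of the genes. How the authors' method treats the last windows of a transcript is not stated, so these positions may not be those of the methylated bases, and its part in the shares below was not tested. Counting to 300 bp, 18 of the 26 lay at the annotated 3′ end, 6 at the 5′ end and 2 (Ndufv2 and Atp5g3) at neither. At a distance of 100 bp, chosen after the data were seen, 17 remained, between 45 and 99 bp from the annotated end. This is 65.4% of the members' sites, against 22.3% of all gained sites and 6.12% of all lost sites. Sites at this place were mostly gains in other genes too. With the members left out, 371 of 419 listed sites within 100 bp of the 3′ end were gains (88.5%), against 64.8% of all sites farther away. Sites in genes spanning at most 35 kb, a limit set to hold every member, were gains in 76.7% of cases and sites in longer genes in 54.9%. Listed peaks overlapped 12 of the 26 sites on both days, 8 at day 4 only, 1 at day 0 only (Atp5h) and 5 on neither day (Ndufv2, Ndufa7, Ndufa5, Ndufa12 and Uqcr10). Over all gained sites these shares were 46.8%, 23.5%, 1.64% and 28.1%.

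Other families of housekeeping subunits were similar in expression and not all alike in m6A. Among mitochondrial ribosomal protein genes (symbols beginning Mrpl or Mrps and a digit) 48 of 55 listed genes were lower in the authors' deposited table, with a median log2 fold change of -0.69. Cytosolic ribosomal protein genes were lower in 63 of 65 and proteasome subunits in 17 of 18, where 49.4% of all listed genes were lower. In m6A, where 68.8% of all listed sites were gains, cytosolic ribosomal protein genes had 52 gains among 53 sites and proteasome subunits 10 among 11. Mitochondrial ribosomal protein genes had 2 gains and 9 losses among 11 sites, 7 of the losses within 300 bp of the 3′ end. The mitochondrial ribosome and the respiratory complexes, which work together in the same organelle, thus had most of their listed sites on opposite sides. No test of these differences was made, and the families were compared with their values known.

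**Figure D5:**
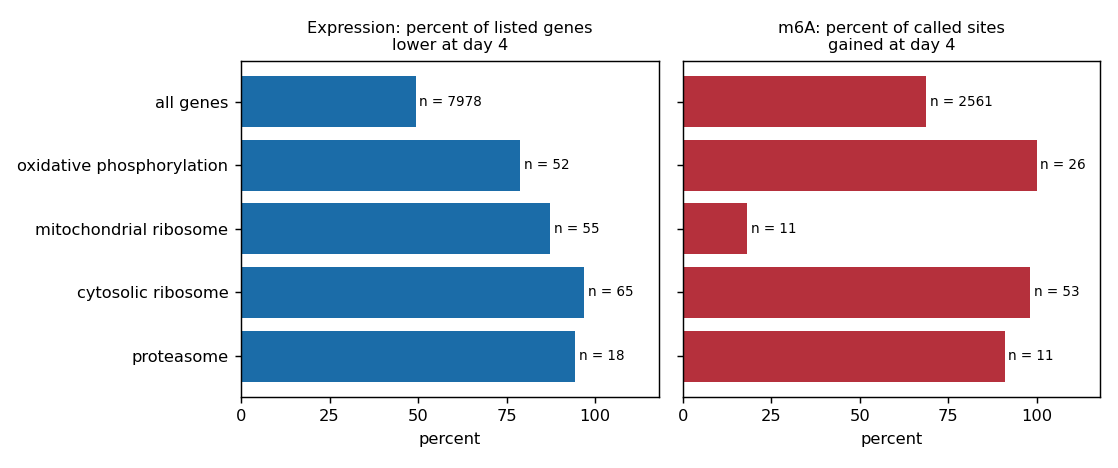
Percent of listed genes lower at day 4 (left) and percent of called m6A sites gained at day 4 (right) for all genes, the oxidative phosphorylation members and 3 other families of subunit genes, with the number of genes or sites beside each bar. The members stand at 78.8% lower and 100% gained, and the mitochondrial ribosome at 87.3% lower and 18.2% gained.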

How the data were processed

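The members, the gene lists and the alternatives were chosen with earlier results of these data known, and the limit of 100 bp and the comparison families after the values were seen. Per the submitters' processing notes, the authors used HISAT2 2.1.0, DESeq2 1.18.1 and the build mm10; the sources used here do not state the peak caller or the methylation test. Per the file headers, the authors give for expression a mean normalized count per gene (a signal over libraries), log2 fold change, SE, test statistic (a score) and adjusted p-value. The deposited peak lists hold a score and an unadjusted p-value per peak, and the methylation table a log fold change, treated as a score, with p-values and false discovery rates. Each list is 1 per day; how its 3 replicates were joined is not stated.

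Libraries were grouped by title. The sign was taken to mean day 4 over day 0, since 93.8% of genes with peaks at day 4 only had positive log2 fold changes in the deposited table and 4.02% of those with peaks at day 0 only. For sites the shares were 98.8% and 24.4%. The number tested was derived from adjusted p, rank and p, by a calculation tested on simulated data. All members were found in a RefSeq table of GRCm38.p6 for spans and distances, which run along the genome with introns. Any member could be named. Full values were meant for up to 6 members per complex by size of change, all that went the other way, all with changed sites and those with the highest peak score or with peaks on 1 day; those of further members, such as Ndufs3 and Atp5f1, were added after they were seen. From each other list up to 3 and 2 of the opposite direction were named, and Yy1, Nrf1 and Gabpa, whose motifs were sought, were named as well. Alternatives were stricter p-values, minimum changes and means, other peak, overlap and site rules, and 1 strand for motifs. Python 3.11.15, numpy 2.4.6, pandas 2.3.3 and matplotlib 3.10.9 were used. The values of 1 member are not reported here by name.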

Additional observations from a re-analysis of the deposited data

How the results depend on the processing

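Requiring an absolute log2 fold change of at least 0.5 left 27 changed members, 23 lower and 4 higher, and requiring at least 1 left 7, with 4 lower and 3 higher. At an adjusted p under 0.01 the higher members were 7 rather than 11. A false discovery rate under 0.01 left 16 gained sites in 15 members and no loss. With motifs sought on the forward strand alone, the ETS letters were in 5 promoter windows of members rather than 16, against 6.30% of protein-coding windows. The other 23 values under alternatives, the limit of 100 bp chosen after seeing the data (17 sites rather than 18) among them, stayed within 1.5 times the reported counts. Among genes changed at least 2-fold, 57.1% of 7 members were lower, against 78.8% of all 52. No paired analysis was possible because the tables carry no value per library, and for the same reason no replicate could be left out. Library depth is unknown, so what depth hides among genes and sites that are not listed cannot be stated.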
